A study of Mus musculus with 24 samples.

Results

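Mitochondrial fatty acid oxidation is the pathway that shortens fatty acids to acetyl-CoA inside mitochondria. It is represented here by 33 genes listed by symbol, for the carnitine shuttle, the oxidation spiral, its auxiliary enzymes, its electron carriers, and the synthetases and thioesterases that set the acyl-CoA supply. Of these, 31 had a named probe among the 19057 named genes of the array, each read from 1 probe, its brightest on average over the 24 arrays, and Acsl1 and Acad11 are not analysed here. Expression had been measured on Illumina mouse whole-genome arrays in the brown fat (brown adipose tissue, BAT) and the white fat (white adipose tissue, WAT) of C57BL/6J males. There were 6 groups of 4 arrays, each tissue from mice fed little fat (low-fat diet), much fat as corn oil (corn-oil high-fat diet, HFD) or much fat with eicosapentaenoic acid and docosahexaenoic acid (EPA/DHA HFD).

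In each diet group, 4 mice had been picked to represent it in body weight, plasma triglyceride and plasma cholesterol. The WAT depot and the age of the mice were not stated in the labels used here, and the text on RNA extraction speaks of skeletal muscle although the samples are labelled as fat. The labels do not tie a BAT array to a WAT array of 1 mouse, and both tissues may come from the same mice. Contrasts between tissues were fitted without pairing by mouse. Nothing in the labels states how far replicate arrays are independent, and p-values measure only the spread between these arrays.

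Fatty acids are activated to acyl-CoA on outer membranes, pass into mitochondria as carnitine esters, and are then oxidised in repeated rounds of dehydrogenation, hydration, a second dehydrogenation and thiolysis. Each round passes electrons to the respiratory chain, partly through the electron transfer flavoprotein. Brown adipocytes burn fatty acids this way to make heat, whereas white adipocytes mainly store them. Double bonds, which are plentiful in EPA, DHA and the linoleic acid of corn oil, need the auxiliary isomerases and reductase before a chain can go on through the spiral.

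In WAT, 5 of the 31 members were higher on the EPA/DHA HFD than on the corn-oil HFD and none was lower, where 2.34% of all genes were called. They were Echs1, Eci1, Eci3, Acads and Crat, with differences from 0.42 to 0.85 in log2 units. Corn oil against the low-fat diet lowered Eci3 and Echs1 and raised Acsl3 in WAT, where 3.87% of all genes were called. No member passed the threshold in a diet comparison within BAT. The tissue contrast was much larger, with 25 of 31 members lower in WAT than in BAT on the low-fat diet and only Eci3 higher, where 20.4% of all genes were lower and 23.3% higher.

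The stretches before the annotated starts are given for 4 of the members that changed in WAT and for Hadhb. Hadhb shares its upstream region with its partner gene. Promoter activity was not tested. The stretches are RefSeq sequences of assembly GRCm38.p6, 250 bases each, read 5′ to 3′ on the gene's strand. They lie at chr7:140116422-140116671 on the minus strand for Echs1, chr17:24426433-24426682 on the plus strand for Eci1, chr13:34963810-34964059 on the minus strand for Eci3, chr5:115119347-115119596 on the minus strand for Acads, and chr5:30155003-30155252 on the plus strand for Hadhb. Capitals mark the AGGTCA half-site in Echs1, and in Hadhb the 228 bases that also lie in the window of Hadha on the opposite strand.
Echs1: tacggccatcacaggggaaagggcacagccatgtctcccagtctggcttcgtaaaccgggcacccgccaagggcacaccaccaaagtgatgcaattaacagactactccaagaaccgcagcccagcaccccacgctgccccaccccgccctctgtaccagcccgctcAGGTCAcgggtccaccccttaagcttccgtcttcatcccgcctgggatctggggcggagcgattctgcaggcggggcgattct
Eci1: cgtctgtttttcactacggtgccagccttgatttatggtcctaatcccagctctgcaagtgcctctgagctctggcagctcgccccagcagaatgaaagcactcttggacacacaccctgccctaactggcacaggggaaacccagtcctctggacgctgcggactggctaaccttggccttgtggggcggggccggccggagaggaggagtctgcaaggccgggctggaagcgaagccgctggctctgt
Eci3: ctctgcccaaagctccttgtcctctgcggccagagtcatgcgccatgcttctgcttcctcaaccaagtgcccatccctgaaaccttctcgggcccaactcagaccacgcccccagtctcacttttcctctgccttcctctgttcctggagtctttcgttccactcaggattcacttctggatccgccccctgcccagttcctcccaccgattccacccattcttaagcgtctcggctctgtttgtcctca
Acads: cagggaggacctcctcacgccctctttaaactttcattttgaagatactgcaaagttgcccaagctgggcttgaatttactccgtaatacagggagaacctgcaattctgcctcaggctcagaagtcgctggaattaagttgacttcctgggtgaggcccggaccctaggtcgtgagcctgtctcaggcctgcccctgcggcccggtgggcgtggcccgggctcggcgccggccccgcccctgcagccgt
Hadhb: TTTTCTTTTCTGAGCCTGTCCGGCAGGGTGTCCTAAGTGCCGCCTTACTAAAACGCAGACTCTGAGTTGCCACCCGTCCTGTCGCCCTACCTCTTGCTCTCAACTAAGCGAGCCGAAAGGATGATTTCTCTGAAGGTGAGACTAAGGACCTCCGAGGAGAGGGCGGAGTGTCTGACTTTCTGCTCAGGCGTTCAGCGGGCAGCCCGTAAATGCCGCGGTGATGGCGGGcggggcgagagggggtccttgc

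Promoter windows of 300 bases, from 250 before to 50 after the start, were listed for 24 of the 31 members. Members without an entry were Acaa2, Acad9, Acat1, Acot13, Cpt1b, Crat and Decr1. The windows of the members had a median GC content of 60.5% and a median of 17 CpG dinucleotides, against 52.7% and 7 over the 27025 genes with a window, counting 1 window a gene. For motifs, a gene counted as a match where any of its windows held the letters, and Acsl6 had 3 windows. AGGTCA, the half-site that many nuclear receptors recognise, was searched on both strands and found in Acadm, Acadvl, Acsl6, Cpt1a and Echs1. These 5 of 24 make 20.8%, beside 18.1% of all genes with a window. A direct repeat of that half-site spaced by 1 base of any kind, the DR1 consensus bound by PPAR with RXR, was also searched on both strands and was found for 0 of 24 members and for 0.0481% of all genes. TCAAGGTCA, the consensus element of oestrogen-related receptors, contains the half-site and was found for Acsl6 alone among the members, beside 0.466% of all genes. A match is a description of letters in this window, and so is the lack of one.

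Some members lie next to each other. Hadha (chr5:30119423-30154980) and Hadhb (chr5:30155253-30184593), the subunits of the trifunctional protein, are arranged head to head with 272 bases between them. Eci3 (chr13:34946614-34963988) lies 13759 bases from Eci2. Acot1 (chr12:84009502-84017670) lies 15624 bases from Acot2. Eci3 and Eci2, and Acot1 and Acot2, are close relatives, and probe sequences were not aligned, so a probe of 1 may also read the other.

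Values are the deposited log2 expression per probe, ran from 6.95 to 14.79 and had a floor near 7. Differences carry ± their standard error. A member was called where limma's moderated test gave a Benjamini-Hochberg adjusted p under 0.05 over all 27168 probes kept in a tissue, or the 29493 kept in either for contrasts between tissues. Cpt1a did not pass the filter on low values in BAT, so 30 members were tested there and 31 elsewhere. Mean levels over a tissue's 12 arrays were under 7.5 for 7 members in WAT (Cpt1a, Hadh, Acat1, Acsl4, Acsl6, Acot2 and Acot9) and for 4 in BAT (Cpt1a, Acsl4, Acsl6 and Acot9), where differences may be understated. In whole tissue, fewer cells of a type and less RNA per cell cannot be told apart.

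The tissue labels were set against marker lists. Ucp1, the uncoupling protein of brown adipocytes, lay at 13.55 to 14.41 in the 12 BAT arrays. In WAT it lay at 7.08 to 8.02 in 10 arrays, at 9.38 in corn-oil replicate 4 and at 10.63 in EPA/DHA replicate 2. The brown adipocyte score, the mean log2 value of 9 markers, was 7.79 to 8.18 in low-fat WAT, 7.71 to 8.58 on corn oil and 8.04 to 9.34 on EPA/DHA, and 10.51 to 11.17 in BAT. Of the 9 markers, Elovl3, Dio2, Zic1 and Lhx8 stayed below 7.5 in every WAT array, and Lhx8 did so in every BAT array too. A skeletal muscle score of 12 markers ran from 8.29 to 12.77 across the BAT arrays and all 12 markers reached 7.5 there, whereas Ckm, Myh4 and 6 others stayed below 7.5 in every WAT array. A liver score of 11 markers ran from 8.21 to 10.88 in WAT, with Alb and Fgb below 7.5 in every array, and from 7.08 to 7.69 in BAT. Macrophage scores of 10 markers in WAT were 9.07 to 9.44 on low-fat, 9.40 to 9.71 on corn oil and 8.97 to 9.64 on EPA/DHA.

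The EPA/DHA HFD against the corn-oil HFD in WAT asked what the kind of fat did at high fat intake. Of 31 members, 5 were higher and 0 lower, where 2.34% of all genes tested were called, 1.18% higher and 1.17% lower. The median difference of the members was 0.25, beside 0.0016 over all genes, and 26 members had a positive difference. The mean over the 31 members was 9.25, 9.29, 9.29 and 9.38 in the corn-oil arrays and 9.52, 9.72, 9.47 and 9.49 in the EPA/DHA arrays, so that all 4 EPA/DHA arrays lay above all 4 corn-oil arrays. On the low-fat diet it was 9.44, 9.37, 9.34 and 9.40. These counts and means are a description, since the list was drawn up with results of these data known.

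Echs1, the short-chain enoyl-CoA hydratase that adds water to the double bond made in each round, had the smallest adjusted p. Its levels were 11.31, 11.31, 11.34 and 11.53 on corn oil and 12.06, 11.76, 11.99 and 12.03 on EPA/DHA. All 4 EPA/DHA arrays lay above all 4 corn-oil arrays. The difference was 0.59 ± 0.07 (limma adjusted p = 0.00454) and kept its call without any 1 of the 12 WAT arrays, with an adjusted p of at most 0.0197. A dimmer probe of Echs1 differed by 0.10 (adjusted p = 0.429).

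The auxiliary isomerases followed. Eci3 is an enoyl-CoA delta isomerase that moves double bonds, and where in the cell its protein acts was not tested. It was measured at 8.49, 8.59, 8.51 and 8.28 on corn oil and at 9.41, 8.84, 9.55 and 9.47 on EPA/DHA. The groups did not overlap, EPA/DHA replicate 2 being the lowest of its group. The difference was 0.85 ± 0.16 (adjusted p = 0.0262). Eci1, the main mitochondrial isomerase of this kind, was at 11.07, 11.07, 10.91 and 11.16 on corn oil and at 11.83, 11.89, 11.44 and 11.57 on EPA/DHA, again without overlap. Its difference was 0.63 ± 0.12 (adjusted p = 0.032). Eci2, an isomerase of peroxisomes and mitochondria, differed by 0.13 ± 0.10 and Decr1, the reductase for conjugated double bonds, by 0.17 ± 0.07, and neither passed (adjusted p = 0.618 and 0.282). All 4 auxiliary enzymes had positive differences, with a median of 0.40.

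Acads, the dehydrogenase for short chains, lay at 9.41, 9.61, 9.75 and 9.75 on corn oil and at 9.90, 10.22, 10.12 and 10.14 on EPA/DHA. The groups did not overlap, and the difference was 0.46 ± 0.10 (adjusted p = 0.0457). A dimmer probe of Acads differed by 0.08 (adjusted p = 0.628). The other dehydrogenases, which take the first step for chains of different length, all had positive differences but did not pass. Acadvl, for very long chains, differed by 0.66 ± 0.19 (adjusted p = 0.126), Acadl, for long chains, by 0.45 ± 0.12 (0.0869), Acadm, for medium chains, by 0.26 ± 0.12 (0.322), and Acad10 by 0.20 ± 0.07 (0.231). The corn-oil and EPA/DHA arrays of Acad10 did not overlap, and those of Acadvl did.

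In the carnitine shuttle, Crat, the carnitine acetyltransferase that buffers acetyl-CoA, rose. Its levels were 8.89, 8.94, 9.0 and 9.23 on corn oil and 9.44, 9.44, 9.60 and 9.27 on EPA/DHA. The lowest EPA/DHA array lay just above the highest corn-oil array, and the difference was 0.42 ± 0.09 (adjusted p = 0.0477). The next brightest probe of Crat also passed, at 0.29 ± 0.06 (adjusted p = 0.0392), and the dimmest did not, at 0.07 (adjusted p = 0.52).

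The palmitoyltransferases of the shuttle did not pass. Cpt1b, the muscle and brown fat form of the gate enzyme on the outer membrane, was at 7.41, 7.46, 7.5 and 8.29 on corn oil and at 7.6, 9.59, 7.58 and 7.85 on EPA/DHA, a difference of 0.49 ± 0.40 (adjusted p = 0.639). Its high arrays were corn-oil replicate 4 and EPA/DHA replicate 2, the same arrays that had high Ucp1. Cpt2, which hands the chain back to CoA inside the matrix, was at 11.65, 11.81, 11.79 and 12.10 on corn oil and at 12.15, 12.28, 11.93 and 12.03 on EPA/DHA, with overlap and a difference of 0.26 ± 0.10 (adjusted p = 0.227). Cpt1a, the liver form of the gate enzyme, stayed between 7.05 and 7.20 in all 12 WAT arrays, at the floor, where its probe could not show a fall (EPA/DHA minus corn oil 0.01 ± 0.03, adjusted p = 0.928).

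Of the remaining spiral enzymes, Hadhb, the thiolase subunit of the trifunctional protein, differed by 0.47 ± 0.22 (adjusted p = 0.349) and Hadha, its partner, by -0.04 ± 0.06 (0.828). The Hadha probe was close to the floor in WAT, at 7.38 to 7.69. Acaa2, the thiolase of the matrix, differed by 0.58 ± 0.27 (0.355) and its groups did not overlap, and Hadh, the hydroxyacyl-CoA dehydrogenase, differed by 0.20 ± 0.06 (0.126). The electron carriers Etfa, Etfb and Etfdh, which pass electrons from the dehydrogenases to ubiquinone, had differences of 0.34, 0.25 and 0.25, and none passed. The synthetases Acsl3, Acsl4, Acsl5 and Acsl6 had a median difference of -0.00 and the thioesterases Acot1, Acot2, Acot9 and Acot13 one of 0.03, with 0 called in either group. Groups of 4 arrays did not overlap for 8 members, all higher on EPA/DHA (Crat, Acads, Acad10, Echs1, Acaa2, Eci1, Eci3 and Etfa), beside 10.2% of all genes not overlapping and 5.29% of all genes not overlapping and higher.

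**Figure D1:**
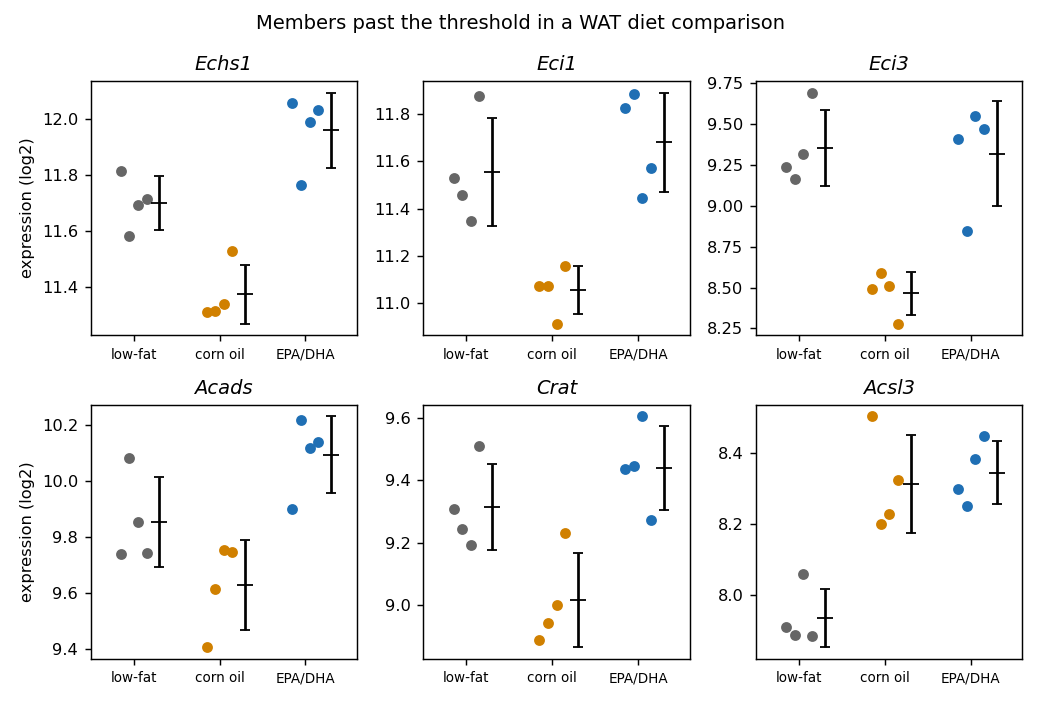
Log2 expression in each of the 4 WAT arrays per diet (points) with the group mean ± SD (black) for the 6 members past the threshold in a WAT diet comparison; axes do not start at 0. The corn-oil arrays of Echs1, Eci1 and Eci3 lie below all arrays of both other diets, and the low-fat arrays of Acsl3 lie below all others.

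Several of these calls were lost in fits with 1 array fewer. Leaving out 1 of the 12 WAT arrays left between 1 and 5 members called. Echs1 stayed called each time. Eci1 was lost without each of the 4 corn-oil arrays and without each of EPA/DHA replicates 1, 2 and 4 (adjusted p up to 0.0803), and Eci3 without each of the 4 corn-oil arrays and each of EPA/DHA replicates 1, 3 and 4 (up to 0.0741). Acads was called in 3 of these 12 fits, without EPA/DHA replicate 1 (0.0396) and low-fat replicates 2 (0.033) and 4 (0.0466), and Crat in 2, without corn-oil replicate 4 (0.0295) and low-fat replicate 4 (0.0327). Their adjusted p was otherwise up to 0.111 and 0.117. The differences themselves ran from 0.56 to 0.71 for Eci1, 0.78 to 1.01 for Eci3, 0.39 to 0.53 for Acads and 0.37 to 0.50 for Crat. Of the 13 other alternatives, Echs1 kept its call in 13, Eci3 in 12, Eci1 in 10, Acads in 7 and Crat in 6, with an adjusted p of at most 0.0168, 0.0584, 0.0925, 0.11 and 0.106.

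**Figure D2:**
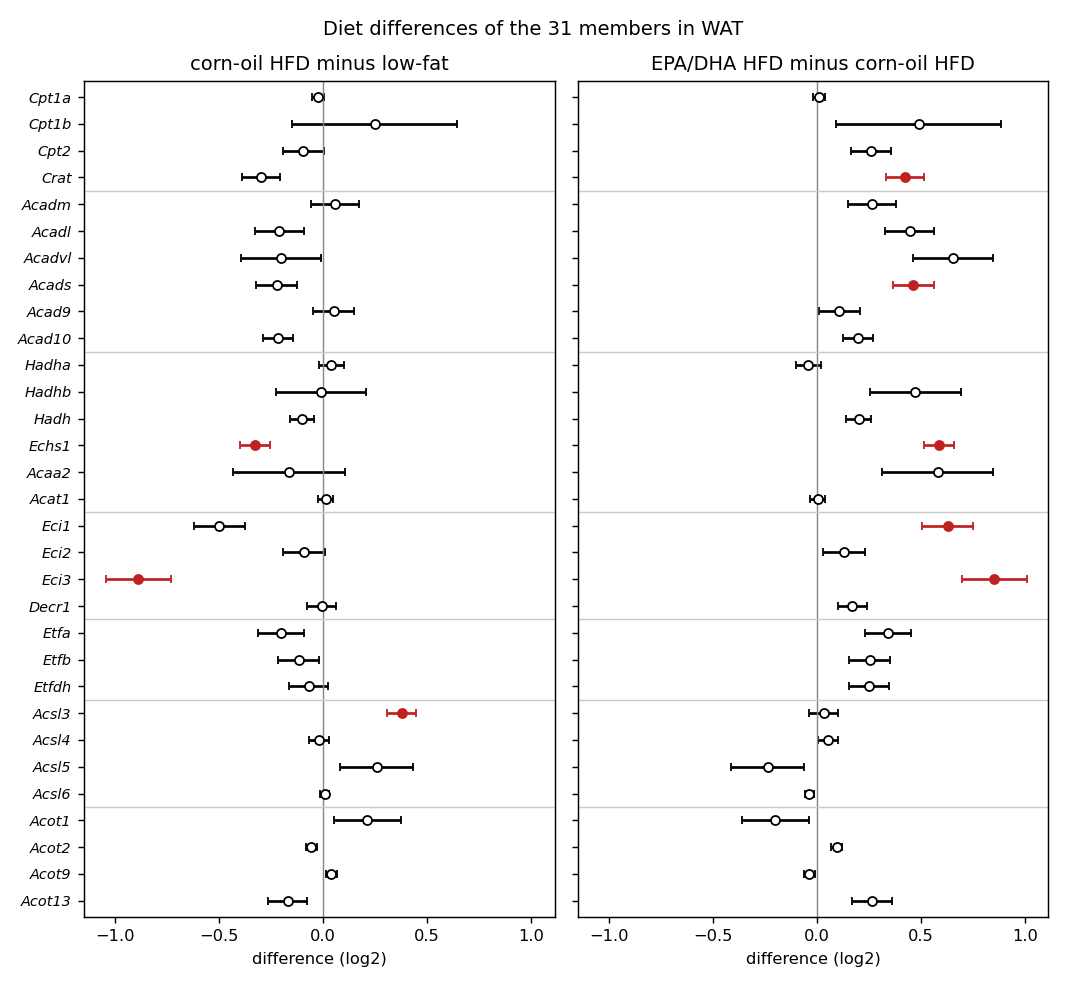
Difference in log2 expression ± standard error for the 31 members in WAT, corn-oil HFD minus low-fat on the left and EPA/DHA HFD minus corn-oil HFD on the right, ordered by role from the carnitine shuttle (top) to the thioesterases (bottom); filled red points passed an adjusted p of 0.05. On the right 26 of 31 points lie above 0 and 5 are filled; the panels share the 4 corn-oil arrays.

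Brown adipocyte markers moved with some of the members and not with others. After subtracting each diet's mean, the 12 WAT arrays gave a correlation with the brown adipocyte score of 0.98 for Cpt1b, 0.94 for Acadvl, 0.86 for Acaa2, 0.83 for Cpt2, 0.81 for Hadhb and 0.81 for Etfb. It was 0.47 for Eci1, 0.37 for Acads, 0.30 for Crat, -0.15 for Echs1 and -0.76 for Eci3. These are descriptions over 12 arrays. In EPA/DHA replicate 2, the array with the highest score, Cpt1b was at 9.59, Acadvl at 11.60, Acaa2 at 10.78 and Hadhb at 12.97, each the highest of the 12.

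Without EPA/DHA replicate 2 and corn-oil replicate 4, the WAT arrays with the highest Ucp1, 3 members were called. They were Echs1 at 0.70 ± 0.05 (adjusted p = 0.00153), Eci3 at 0.95 ± 0.12 (0.0115) and Acadvl at 0.58 ± 0.07 (0.0127). The difference was then 0.50 for Crat (0.0535), 0.59 for Eci1 (0.0925), 0.46 for Acads (0.11) and 0.22 for Cpt1b. The median over the members was 0.19, and 26 of 31 stayed positive. With the brown adipocyte score as a covariate, Echs1 (0.60, adjusted p = 0.0113) and Eci3 (1.04, 0.00516) stayed called, the median was 0.14, 24 members were positive and Cpt1b turned to -0.12. Both alternatives were chosen after seeing the data. With the liver score as a covariate, only Echs1 stayed called (0.61, 0.0103).

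**Figure D3:**
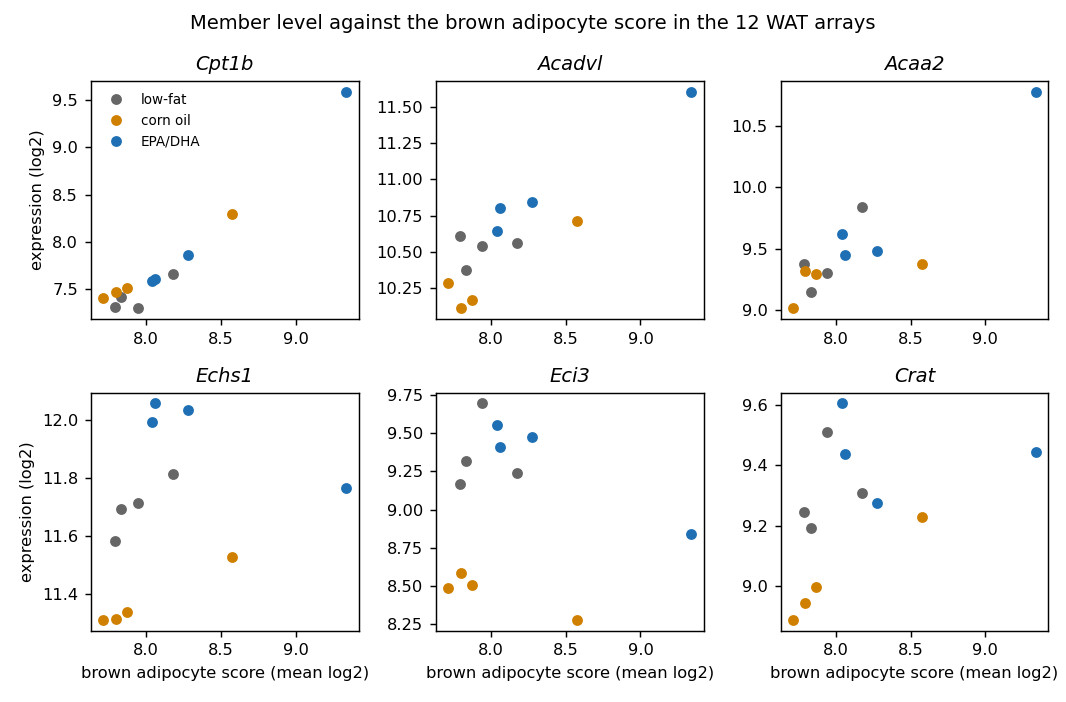
Log2 expression of 6 members in the 12 WAT arrays against the brown adipocyte score (mean log2 value of 9 markers) of the same array, coloured by diet; axes do not start at 0. Cpt1b, Acadvl and Acaa2 are highest in the EPA/DHA array with a score of 9.34. The corn-oil arrays are the lowest for Echs1 and Eci3, and 3 of them, at scores of 7.71 to 7.87, lie below the score of every EPA/DHA array, at 8.04 to 9.34.

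The corn-oil HFD against the low-fat diet in WAT asked what a high intake of n-6-rich fat did. It changed 3 of 31 members, where 3.87% of all genes were called. Of these, 2 were lower (1.82% of all genes) and 1 was higher (2.05%). The median difference of the members was -0.07, beside -0.0021 over all genes, and 21 members had a negative difference. This contrast uses the same corn-oil arrays as the previous one, so the opposite signs in the pair of contrasts are not independent of each other.

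Eci3 lay at 9.24, 9.17, 9.32 and 9.69 on low-fat, above all 4 corn-oil arrays, which were at 8.28 to 8.59. It fell by 0.89 ± 0.16 (limma adjusted p = 0.0185), and the call was lost only without corn-oil replicate 4 (adjusted p = 0.0524). Echs1 lay at 11.81, 11.58, 11.69 and 11.71 on low-fat, also above all corn-oil arrays, and fell by 0.33 ± 0.07 (adjusted p = 0.0424). This call held in 4 of the 12 fits that left out 1 array, those without corn-oil replicate 4, EPA/DHA replicates 1 and 2 and low-fat replicate 2. The adjusted p was otherwise between 0.0563 and 0.111. The call was also lost in 5 of the 13 other alternatives, with no filter (0.0608), a trended and robust prior (0.0743), the 24-array fit (0.0574), and the liver (0.0505) or brown adipocyte score (0.0544) as a covariate. Eci1 was at 11.53, 11.46, 11.35 and 11.88 on low-fat, with no overlap with corn oil, and differed by -0.50 ± 0.12 without passing (adjusted p = 0.0582). Whether Eci1 passed depended on the setting. It passed with the 60th percentile filter (0.0408), the trended and robust prior (0.0258), the mean over probes (0.0402) and the 24-array fit (0.00846). It also passed with the muscle (0.0273) or brown adipocyte score (0.045) as a covariate, and without EPA/DHA replicate 3 (0.0496). In the other fits it did not pass.

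Acsl3, a synthetase that activates long chains at the endoplasmic reticulum and lipid droplets, was the 1 member that rose. Its levels were 7.91, 7.89, 8.06 and 7.88 on low-fat, 8.50, 8.2, 8.23 and 8.32 on corn oil, and 8.30, 8.25, 8.38 and 8.45 on EPA/DHA. All 8 high-fat arrays lay above the 4 low-fat arrays. Corn oil raised it by 0.38 ± 0.07 (adjusted p = 0.0211), a call lost without corn-oil replicate 4 (0.0562) and low-fat replicates 1 (0.0577) and 4 (0.064), and without both WAT arrays of high Ucp1 (0.0593). It was also lost in the fit over all 24 arrays (0.403) and with the mean over all probes of the gene, where the difference was 0.12 (0.0502). Acsl3 had 3 probes, and the call is that of the brightest. At least 1 of the others was too dim to be tested alone in WAT. EPA/DHA against corn oil differed by 0.03 ± 0.07 (0.895).

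Groups did not overlap for 5 members in this contrast, Acad10, Echs1, Eci1, Eci3 and Acsl3, beside 12.4% of all genes. The shuttle enzymes did not pass. Crat differed by -0.30 ± 0.09 (adjusted p = 0.123), Cpt2, at 12.06, 11.89, 11.87 and 11.90 on low-fat, by -0.09 ± 0.10 (0.725), Cpt1b, at 7.66, 7.31, 7.41 and 7.29 on low-fat, by 0.25 ± 0.40 (0.84), and Cpt1a by -0.03 ± 0.03 (0.748). The mesothelial score of 5 markers was 7.88 to 8.19 on low-fat and 7.46 to 7.75 on corn oil, and macrophage scores overlapped only between 9.40 and 9.44. The part of these cells in the differences was not tested.

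The EPA/DHA HFD against the low-fat diet in WAT compared a high-fat diet containing EPA and DHA with little fat. No member was called (0.03% of all genes were). An unadjusted p under 0.05 by limma was found for 6 members, beside 2061 of all 27168 probes kept in WAT. The median difference of the members was 0.13, with 26 positive. Acsl3 differed by 0.41 ± 0.07 (adjusted p = 0.155), Echs1 by 0.26 ± 0.07 (0.422), Acadvl by 0.45 ± 0.19 (0.625), Eci1 by 0.13 ± 0.12 (0.875) and Eci3 by -0.03 ± 0.16 (0.982). Among the shuttle enzymes, Cpt1b differed by 0.74 ± 0.40 (0.734), Cpt2 by 0.17 ± 0.10 (0.754) and Cpt1a by -0.02 ± 0.03 (0.94). Groups did not overlap for Acadvl, Decr1 and Acsl3, 3 of 31 beside 4.66% of all genes. A p above the threshold does not show that the diets gave like levels.

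In BAT no member was called in any diet comparison. Over all genes, 0% were called for corn oil against low-fat, 0% for EPA/DHA against corn oil and 0.00746% for EPA/DHA against low-fat. Unadjusted p-values under 0.05 by limma were found for 7, 3 and 5 of the 30 members tested. Of all 27168 probes kept in BAT, 2190, 1264 and 1371 had such p-values. The median differences of the members were -0.06, 0.04 and 0.01.

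Among members whose corn-oil and low-fat BAT arrays did not overlap, 5 of 30 beside 5.15% of all genes, Acot1 had the largest difference. Acot1, a cytosolic thioesterase that frees fatty acids from CoA, lay at 9.08, 9.65, 9.98 and 9.41 on low-fat, at 7.49, 8.69, 7.94 and 8.23 on corn oil and at 9.11, 8.24, 7.94 and 8.91 on EPA/DHA. The corn-oil arrays were all below the low-fat arrays, and the EPA/DHA arrays spanned both. The difference was -1.44 ± 0.31 (limma adjusted p = 0.233), and the next probe of Acot1 gave -0.53 ± 0.09 (0.174).

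Acsl5, the synthetase of mitochondria and endoplasmic reticulum, lay at 12.79, 13.49, 13.69 and 13.26 on low-fat, at 12.63, 12.34, 12.11 and 12.45 on corn oil and at 13.43, 13.31, 12.21 and 13.63 on EPA/DHA. EPA/DHA replicate 3 lay with the corn-oil arrays, and the corn-oil difference was -0.93 ± 0.29 (adjusted p = 0.417). Hadha was higher on corn oil in all 4 arrays, at 9.11, 9.05, 9.10 and 8.80 against 8.60, 8.23, 8.29 and 8.37 on low-fat, a difference of 0.65 ± 0.16 (0.301). Its partner Hadhb stayed between 13.80 and 14.10 in all 12 BAT arrays, close to the top of the scale.

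Eci1 lay at 13.22, 13.20, 13.11 and 13.17 on low-fat, at 13.03, 12.94, 12.82 and 12.81 on corn oil and at 13.24, 13.32, 13.06 and 13.10 on EPA/DHA. The corn-oil arrays were the lowest 4 of 12, as in WAT, with differences of -0.28 ± 0.07 from low-fat (adjusted p = 0.301) and 0.28 ± 0.07 for EPA/DHA against corn oil (0.742). Crat differed by -0.27 ± 0.08 between corn oil and low-fat (0.412). EPA/DHA and corn-oil arrays did not overlap for Eci1 and Eci2, 2 of 30 beside 3.71% of all genes. EPA/DHA and low-fat arrays did not overlap for Acot2, a mitochondrial thioesterase, 1 of 30 beside 2.63%.

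**Figure D4:**
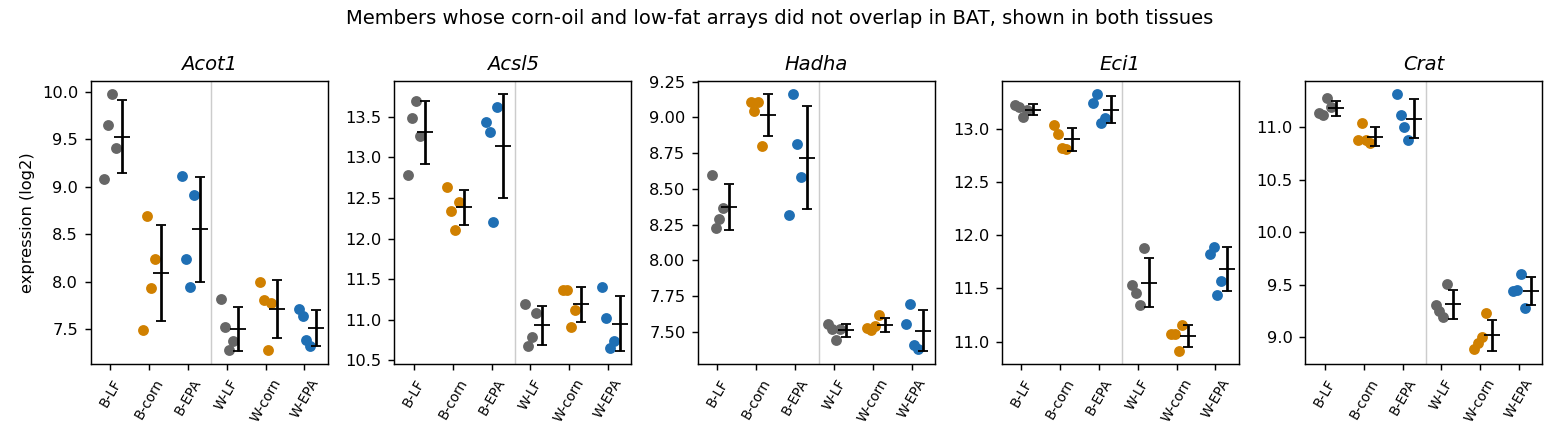
Log2 expression in each array (points) with group mean ± SD (black) for the 5 members whose corn-oil and low-fat arrays did not overlap in BAT; B is BAT, W is WAT, LF the low-fat diet, corn the corn-oil HFD and EPA the EPA/DHA HFD, and axes do not start at 0. Acot1 and Acsl5 are lower and Hadha higher on corn oil in BAT, none past the threshold, and the WAT arrays of Acot1 lie at 7.28 to 8.0.

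Among the shuttle enzymes in BAT, Cpt1b lay at 12.39, 12.59, 12.22 and 12.33 on low-fat, at 12.53, 12.51, 12.19 and 12.26 on corn oil and at 12.43, 12.58, 12.32 and 12.30 on EPA/DHA, with differences of -0.01, 0.04 and 0.03 (standard error 0.10) for corn oil minus low-fat, EPA/DHA minus corn oil and EPA/DHA minus low-fat. The 3 groups overlapped fully, and the sign of these small differences changed with the setting. Cpt2 lay at 13.34, 13.57, 13.20 and 13.41 on low-fat, at 13.37, 13.16, 12.93 and 13.31 on corn oil and at 13.38, 13.38, 13.22 and 13.37 on EPA/DHA, with differences of -0.19, 0.15 and -0.04 in the same order (limma adjusted p = 0.683, 0.999 and 0.986). Cpt1a was at 7.04 to 7.16 in the BAT arrays.

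Skeletal muscle markers varied widely across the BAT arrays and moved with several members. The muscle score was 9.35 to 11.42 on low-fat, 10.57 to 12.51 on corn oil and 8.29 to 12.77 on EPA/DHA. After subtracting each diet's mean, its correlation over the 12 BAT arrays was -0.83 for Eci3, -0.76 for Hadh, -0.70 for Acad10 and -0.69 for Echs1, given as a description. The fit with that score as a covariate called no member in BAT.

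Whether a diet effect differed between the tissues was tested as an interaction, WAT minus BAT. For corn oil against low-fat, 1 of 31 members passed, Acot1 at 1.65 ± 0.37 (limma adjusted p = 0.0483), beside 0.652% of all genes, and 0.435% in that direction. In WAT, Acot1 was at 7.82, 7.53, 7.28 and 7.38 on low-fat and at 8.0, 7.81, 7.28 and 7.77 on corn oil, near the floor, so a fall of the size seen in BAT could not have been measured there. The next probe of Acot1 gave 0.55 ± 0.09 (adjusted p = 0.00982). The call of the main probe held in 6 of 24 fits that left out 1 array, those without BAT corn-oil replicate 2, BAT EPA/DHA replicates 1, 3 and 4, BAT low-fat replicate 1 and WAT corn-oil replicate 3, and the adjusted p was otherwise up to 0.105. The brown adipocyte score within BAT correlated with Acot1 at 0.64 and with Acsl5 at 0.72, and with it as a covariate the interaction of Acot1 was 0.82 (0.787).

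Acsl5 (1.18 ± 0.35, adjusted p = 0.161), Hadha (-0.61 ± 0.18, 0.144) and Eci3 (-0.67 ± 0.24, 0.253) did not pass that test. For EPA/DHA against corn oil, 0 of 31 members passed, beside 0.252% of all genes. An unadjusted p under 0.05 by limma was found for 11 members, beside 2130 of the 29493 probes tested. Echs1 differed most clearly, at 0.53 ± 0.13 (0.12), followed by Eci3 at 0.74 ± 0.24 (0.357). So the rises of Echs1, Eci1, Eci3, Acads and Crat in WAT were not shown to differ from BAT. For EPA/DHA against low-fat, 0 of 31 passed, beside 0.00701% of all genes. An unadjusted p under 0.05 by limma was found for 6 members, beside 1872 of the 29493 probes.

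Between the tissues, 25 of 31 members were lower and 1 was higher in WAT than in BAT on the low-fat diet. Of all genes, 20.4% were lower, 23.3% higher and 43.7% called in either direction. On corn oil 25 were lower and 0 higher, beside 41.1% of all genes called (18.3% lower and 22.8% higher). On EPA/DHA 24 were lower and 1 higher, beside 37.7% (17.6% lower and 20.1% higher). Median differences of the members on the 3 diets were -1.28, -1.21 and -1.09, beside -0.0060, -0.0041 and -0.0030 over all genes.

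The largest difference on the low-fat diet was that of Cpt1b, at 7.66, 7.31, 7.41 and 7.29 in WAT and 12.39, 12.59, 12.22 and 12.33 in BAT. It was lower by 4.97 on the log2 scale (-4.97 ± 0.30, limma adjusted p = 4.9e-11), with WAT near the floor. Acaa2 followed, at 9.84, 9.38, 9.14 and 9.30 in WAT and 13.48, 13.38, 13.26 and 13.11 in BAT (-3.89 ± 0.23, adjusted p = 3.1e-11). Both were apart in every array of both tissues on all diets.

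Acadvl was at 10.56, 10.61, 10.37 and 10.54 in WAT and 13.69, 13.44, 13.48 and 13.54 in BAT (-3.02 ± 0.16, adjusted p = 6.2e-12). Acsl5 differed by -2.38 ± 0.25 (1.5e-07), from 10.67 to 11.19 in WAT and 12.79 to 13.69 in BAT. Etfdh, the oxidoreductase that receives electrons from the flavoprotein, was at 9.95, 9.82, 9.57 and 9.61 in WAT and 12.28, 11.15, 12.20 and 12.34 in BAT (-2.26 ± 0.18, 1.8e-09). BAT replicate 2 was low for Etfdh but still above all WAT arrays.

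Members lower in WAT came from every role. All 6 dehydrogenases, all 6 enzymes of the hydratase, dehydrogenase and thiolase steps, and Cpt1b, Cpt2 and Crat of the shuttle passed, as did Etfb and Etfdh, the synthetases Acsl3 and Acsl5, and the thioesterases Acot1, Acot2 and Acot13. Of the auxiliary enzymes, Eci1 (-1.62 ± 0.10), Eci2 (-0.70 ± 0.09) and Decr1 (-1.28 ± 0.10) were lower. Eci3 went the other way, at 9.24, 9.17, 9.32 and 9.69 in WAT and 8.72, 8.78, 8.67 and 8.57 in BAT, higher by 0.67 ± 0.17 (limma adjusted p = 0.0032). On corn oil its WAT and BAT means were 8.47 and 8.47 (-0.00 ± 0.17, adjusted p = 0.99), and on EPA/DHA WAT was higher again by 0.73 ± 0.17 (0.00176). Not called on low-fat were Cpt1a (0.04 ± 0.03, 0.253), Etfa (-0.53 ± 0.21, 0.056), Acsl4, Acsl6 and Acot9.

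**Figure D5:**
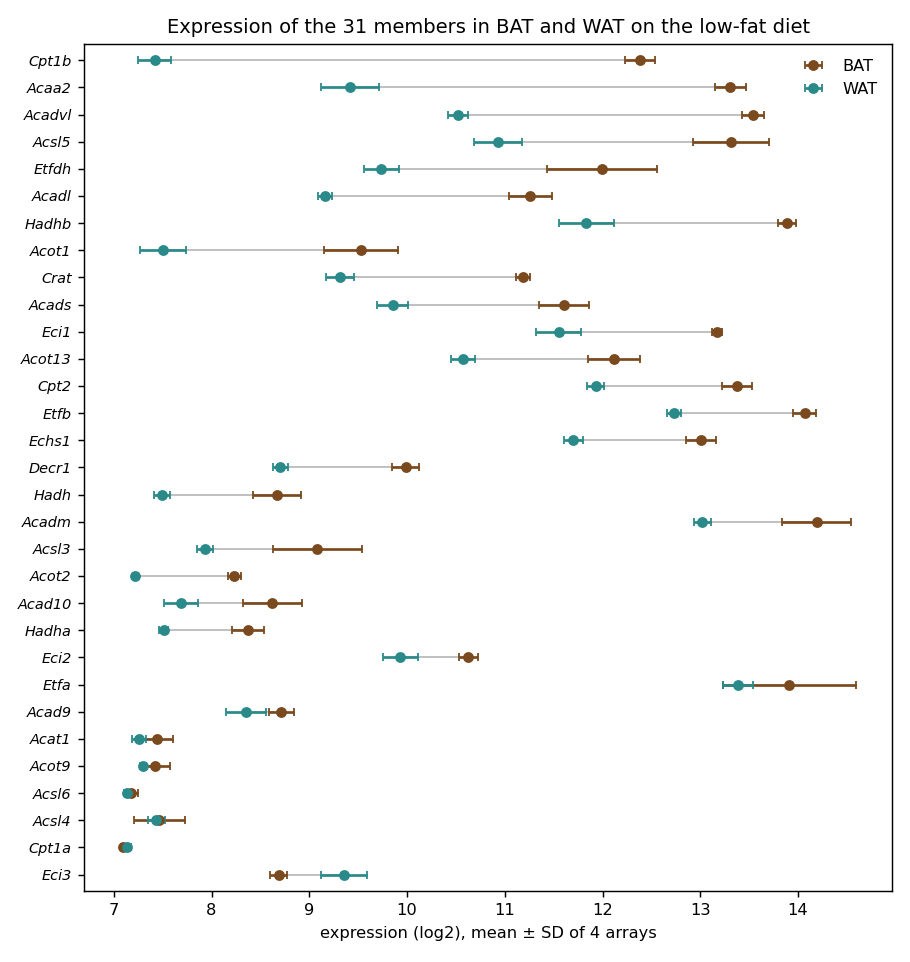
Mean log2 expression ± SD of 4 arrays in BAT (brown) and WAT (teal) on the low-fat diet for the 31 members, ordered from the largest negative to the largest positive WAT minus BAT difference. Cpt1b, Acaa2 and Acadvl have the largest gaps, Eci3 is the 1 member past the threshold with WAT above BAT, and levels of different genes are not comparable across probes.

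Over all diets, the 12 WAT arrays lay entirely below the 12 BAT arrays for 20 of 31 members, beside 9.53% of all genes, and entirely above for 0, beside 11.9% (21.4% in either direction). The ranges overlapped or touched for Cpt1a, Acadm, Acad9, Acat1, Eci3, Etfa, Acsl3, Acsl4, Acsl6, Acot1 and Acot9. For Etfa, 1 BAT array decided the overlap, low-fat replicate 2 at 12.89, where the other low-fat BAT arrays were at 14.14 to 14.30. The same BAT array decided it for Acadm, tied at 13.68 with WAT EPA/DHA replicate 2. The next lowest BAT array of Acadm was at 14.02.

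Genes around the pathway were followed by lists, to be read beside the 3.87% of all genes called for corn oil against low-fat in WAT and the 2.34% called for EPA/DHA against corn oil. Peroxisomal beta-oxidation shortens very long chains outside mitochondria, and in WAT 1 of its 13 tested genes, Scp2, the sterol carrier protein and thiolase, fell on corn oil against low-fat (-0.60 ± 0.10, limma adjusted p = 0.0122) and was higher on EPA/DHA than on corn oil (0.49 ± 0.10, 0.0317). Of 22 related acyl-CoA enzymes outside the spiral, Ivd, the isovaleryl-CoA dehydrogenase of leucine breakdown, did the same (-0.74 ± 0.10, 0.00579, and 0.50 ± 0.10, 0.0317), and Acsf3, the malonyl-CoA synthetase of mitochondria, was higher on EPA/DHA than on corn oil (0.28 ± 0.04, 0.00642). No other gene of these lists passed in a diet comparison.

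Malonyl-CoA and carnitine supply, which sets how freely the shuttle runs, had 6 tested genes in WAT with a median EPA/DHA minus corn-oil difference of 0.14 and 0 called. The 12 transcriptional regulators, among them the PPAR and PGC-1 genes, had a median of 0.08, 11 of them positive, and 0 called. The 11 PPAR targets outside the spiral had a median of 0.11 and the 6 ketone and acetyl-CoA genes one of 0.34, with 0 called in either. On the low-fat diet, where 20.4% of all genes were lower in WAT than in BAT and 23.3% higher, 5 of 6 supply genes, 7 of 12 regulators, 7 of 11 PPAR targets, 7 of 13 peroxisomal genes, 4 of 6 ketone genes and 12 of 22 related enzymes were lower, and 0, 1, 1, 2, 1 and 2 were higher.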

How the data were processed

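The authors deposited log2 expression values per probe for 24 arrays, made with lumi 2.18.0 per the submitters' processing notes. Whether the log2 scale is plain or variance-stabilised is not given in the sources used here. The arrays' value distributions were near identical (largest gap between sorted values 0.0069), as after quantile normalisation, which hides any difference in total signal. Of 45281 probes, 34885 had 1 gene symbol. Probes were kept when their mean over a tissue's 12 arrays exceeded the 40th percentile (7.11 in both tissues). limma 3.58.1 in R 4.3.3 fitted 1 mean per diet within a tissue, and 1 mean per tissue and diet over 24 arrays for interactions and WAT minus BAT. Tests were two-sided, adjusted by the Benjamini-Hochberg method over all kept probes, with a threshold of 0.05, and the pipeline was tested on simulated data. Precision is limited by 4 arrays per group.

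Members, gene lists and marker lists were chosen with earlier results of these data known. Any member may be named. Full values go to members past the threshold in a diet comparison or interaction, to Cpt1a, Cpt1b and Cpt2, and to the 5 largest differences each way between tissues on the low-fat diet. Acadvl, Acaa2, Acsl5, Hadha and Eci1 were also given by array where a result turned on them, chosen after their values were seen. Alternatives tried were testing all probes, a stricter filter at the 60th percentile, centring arrays on the median, array weights, a prior both trended and robust, the mean over a gene's probes, a replicate block, muscle and liver scores as covariates, the 8 arrays of a diet pair, 1 fit over 24 arrays and leaving out each array. The brown adipocyte covariate and leaving out the WAT arrays with the highest Ucp1 were added after seeing the data. No array was a duplicate, the highest correlation of 2 arrays being 0.9955.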

Additional observations from a re-analysis of the deposited data

Results flagged for a closer look

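Over 186 groups of 4 arrays, 1 for each member, tissue and diet, 16 arrays stood apart from the other 3 of their group by Dixon's test. Chance alone marks about 1 in 20 such groups.

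In WAT, Cpt1b was at 9.59 in EPA/DHA replicate 2, with the others at 7.58 to 7.85, and at 8.29 in corn-oil replicate 4, with the others at 7.41 to 7.5. The same EPA/DHA array was high for Acaa2 at 10.78 (others 9.45 to 9.62) and Hadhb at 12.97 (others 12.02 to 12.17). It also had the highest Ucp1 of the WAT arrays, at 10.63. Corn-oil replicate 4, with Ucp1 at 9.38, was high for Echs1 at 11.53 (others 11.31 to 11.34) and low for Acsl4 at 7.29 (others 7.45 to 7.47). Other WAT arrays apart from their group were corn-oil replicate 1 for Acadm at 12.83 (others 13.14 to 13.18), corn-oil replicate 3 for Cpt1a at 7.05 (others 7.13 to 7.14), low-fat replicate 1 for Cpt2 at 12.06 (others 11.87 to 11.90), EPA/DHA replicate 1 for Acad10 at 7.77 (others 7.63 to 7.64) and low-fat replicate 3 for Acsl3 at 8.06 (others 7.88 to 7.91).

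In BAT, low-fat replicate 2 was low for Etfa at 12.89 (others 14.14 to 14.30) and for Etfdh at 11.15 (others 12.20 to 12.34), and high for Acad10 at 9.07 (others 8.46 to 8.49). EPA/DHA replicate 3 was low for Cpt2 at 13.22 (others 13.37 to 13.38), and EPA/DHA replicate 4 was low for Acads at 11.36 (others 11.71 to 11.76).

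The effect of corn oil against low-fat differed between the tissues for Acot1, by 1.65 (WAT minus BAT, limma adjusted p = 0.0483), with the WAT values near the floor of the scale.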

How the results depend on the processing

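For EPA/DHA against corn oil in WAT, 5 members were called. The count was 3 with no filter, 3 with the 8 arrays of these diets, 3 without the 2 WAT arrays of highest Ucp1, 2 with the brown adipocyte score and 1 with the liver score as a covariate, and 1 to 5 without 1 array. For corn oil against low-fat in WAT, 3 became 5 with the muscle score, 2 with the liver score and 2 without the 2 arrays of highest Ucp1. The members called changed too. With no filter they were Acsl3 and Eci3, and in the 24-array fit Eci1 and Eci3. Eci1 entered in several alternatives, Acad10 with the muscle score (limma adjusted p = 0.0462) and Crat with the mean over probes (0.0478). Echs1 and Acsl3 were each lost in some. The count ran from 2 to 5 over the 13 alternatives that were not leave-one-out fits, and from 1 to 3 without 1 array. The corn-oil interaction had 1 member called, and 0 with no filter, the trended and robust prior, the replicate block, the liver or brown score or without the 2 arrays, and 0 to 2 without 1 array. The EPA/DHA against corn-oil interaction went from 0 to 1 (Echs1) with the muscle score (0.61, limma adjusted p = 0.0178) and without the 2 arrays (0.65, 0.0386). The 24-array fit called 2 members in BAT for corn oil against low-fat, Acot1 (-1.44, 0.0154) and Hadha (0.65, 0.0223), and 1 for EPA/DHA against low-fat, Acot2 (-0.28, 0.0469). Some of these fits held fewer arrays, and the cause of the changes was not tested.

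Signs were followed for the called members, for Cpt1b and Cpt2, and for the largest tissue differences. Among these, signs turned only for differences that never passed. Signs of other members were not followed 1 by 1, and some turned. For EPA/DHA minus low-fat in BAT, 16 positive members became 19 with the brown score. Cpt1b in BAT was 0.0387 (array weights), 0.0277 (muscle), 0.0049 (liver) and 0.0100 (brown) for corn oil minus low-fat, and -0.0660 to 0.0566 without 1 array. It was -0.0259 (liver) and -0.0234 to 0.0908 without 1 array for EPA/DHA minus corn oil, and -0.0210 (liver) and -0.0320 to 0.0945 for EPA/DHA minus low-fat. Cpt2 in BAT was 0.0097 (array weights), 0.0062 (brown) and -0.1002 to 0.0224 for EPA/DHA minus low-fat. Cpt1b in WAT was -0.1211 (brown) for EPA/DHA minus corn oil. Tissue counts stayed within 24 to 28 members called without 1 array.

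Same-numbered arrays of different tissues correlated at -0.19 to 0.07 (12 pairs), and those of different diets at -0.36 to 0.54 (24 pairs, 12 over 0.1), which does not meet the rule used here for paired samples, a correlation over 0.1 in every pair. Replicate 1 of WAT correlated at 0.44 to 0.54 across diets, and the labels do not say what a number marks. With the replicate block, 4 members were called for EPA/DHA against corn oil (Crat no longer, adjusted p = 0.087), 3 for corn oil against low-fat and 0 in the corn-oil interaction (Acot1 no longer, 0.128).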
